A study of Homo sapiens with 8 samples.

Results

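The 10 genes described here encode the core of the human miRNA pathway, namely the Argonautes AGO1, AGO2, AGO3 and AGO4, the processing enzymes DROSHA and DICER1, the export receptor XPO5, and the silencing scaffolds TNRC6A, TNRC6B and TNRC6C. They were chosen by name and are 10 of 16557 genes that the arrays' probes could be matched to in RefSeq. The arrays carried 16 probes for them among 41000 probes in all. The arrays measured mRNA in ST486, a human Burkitt lymphoma B cell line with little endogenous miR-155. The cells were transduced with the retroviral vector MXW-PGK-IRES-GFP, either empty (EV-ST486, EV cells) or carrying miR-155 (miR-155-ST486, miR-155 cells). The paper reports sorting of GFP+ cells for its check of miR-155 overexpression. It does not state whether the immunoprecipitated cells were sorted. From each line, total RNA (T) was set against RNA recovered by immunoprecipitation with an antibody to Ago2 (IP), a method termed Ago2-RIP-Chip. There was 1 RNA sample per condition, 4 in all, and each was labelled once with Cy3 and once with Cy5, so that the labellings are technical repeats and no test between conditions was possible. Differences are therefore given with both dye orientations beside them, and a probe was called when its ratio was at least 2 or at most 0.5.

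Primary miRNA transcripts are cut in the nucleus by DROSHA, the resulting hairpins leave through XPO5, and DICER1 cuts them to the duplex from which 1 strand is loaded onto an Argonaute. Argonaute binds the target mRNA through the miRNA, and TNRC6 proteins bound to Argonaute recruit the deadenylases that silence the target. The immunoprecipitation acts on the AGO2 protein, whereas the array reads mRNA, so an IP over total ratio (IP/T) above 1 for a gene of this machinery describes its own transcript in the Ago2 fraction. IgG control arrays were not analysed here, and the share of any IP signal that is independent of Ago2 was not tested.

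The miRNA that separated the lines is shown first, since its seed defines the sites it can pair with. The mature RefSeq sequences lie on the plus strand of GRCh38.p14, and capitals mark the seed, bases 2 to 8 from the 5′ end.
hsa-miR-155-5p (chr21:25573983-25574006): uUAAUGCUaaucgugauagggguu
hsa-miR-155-3p (chr21:25574022-25574043): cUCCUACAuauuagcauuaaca
The DNA letters of the site complementary to the 5p seed are AGCATTA. The 3p seed differs from it.

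The channels detected between 14094 and 22161 probes, and no spot outside the controls was saturated. Of the 41000 probes, 19469 were detected in at least 4 of 8 channels, and 15529 were kept after removal of probes whose labellings of 1 RNA sample differed by more than 2-fold. Each vector lay on its own slide, so slide and vector cannot be told apart. Among B cell marker genes, MS4A1, CD79A, CD79B and MME were detected in all 8 channels and CD22 in 7, whereas PAX5 was detected in 0. Of 6 genes of other cell types, CD3D, CD3E, LYZ and EPCAM were detected in 0 channels, HBB in 2 and CD14 in 5. The probe for MIR155HG, the host transcript of miR-155, was well above background in 0 of 4 EV channels and in both labellings of miR-155 total RNA, at least 1.40-fold above EV total RNA. Whether that probe lies within the cloned insert is not given in the sources used here.

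Of the 16 probes, 12 were kept and represented 9 of the 10 genes. A second AGO1 probe was detected in 1 channel, a second TNRC6A probe in 2 and the only TNRC6C probe in 0. TNRC6B probe 4 was detected in 7 channels but was removed because its labellings of miR-155 total RNA were 38.6 in Cy3 and 93.9 in Cy5. Probes of a gene are numbered by their mean signal, and signals are quantile-normalised intensities, listed with Cy3 before Cy5. Since probes differ in sequence, signals were compared within a probe only.

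**Figure D1:**
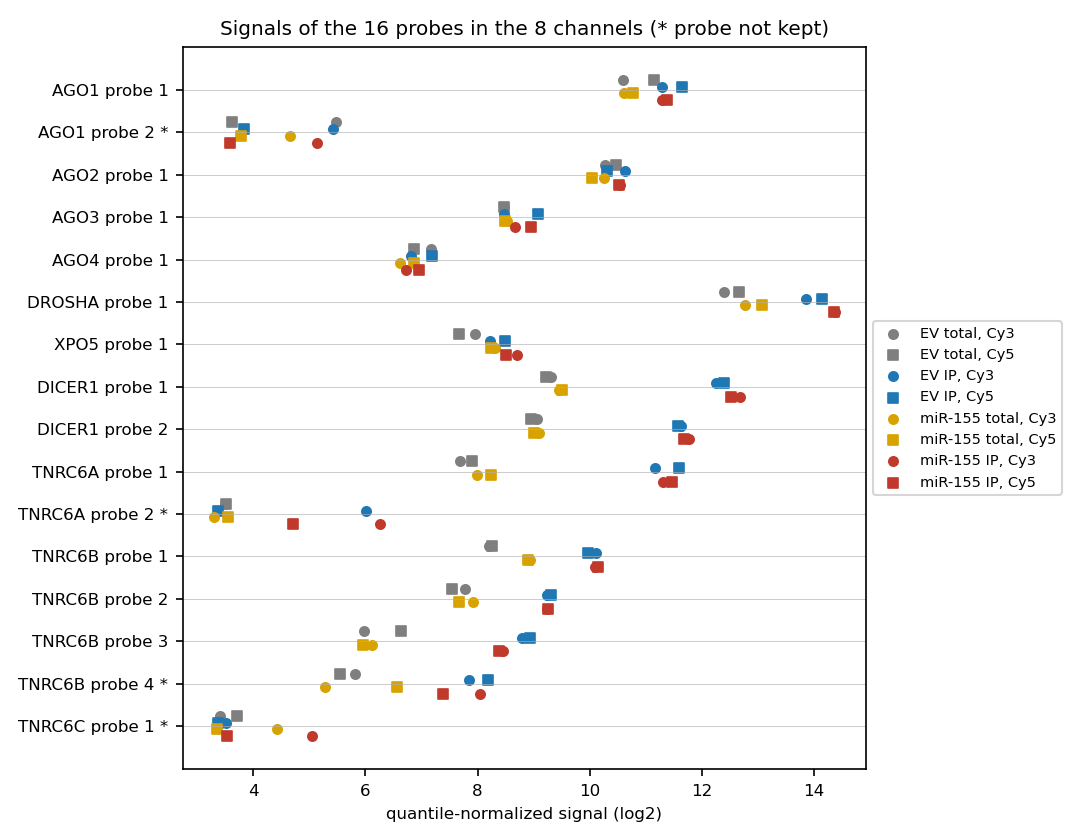
Normalised signal (log2, horizontal axis) of the 16 probes in the 8 channels, with circles for Cy3, squares for Cy5 and 1 colour for each of the 4 RNA samples. An asterisk marks the 4 probes that were not kept. On the kept probes, the Ago2-IP channels of DICER1, DROSHA, TNRC6A and TNRC6B stand above the total RNA channels of the same probe, and those of the Argonautes lie close to them.

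The Argonaute transcripts were not called in the Ago2 fraction of either line. AGO1 bears guide RNAs without the slicing activity for which AGO2 is known, and its kept probe read 1540.5 and 2268 in EV total RNA, 2504 and 3222 in EV Ago2-IP RNA, 1567 and 1740.3 in miR-155 total RNA and 2490.0 and 2675 in miR-155 Ago2-IP RNA. Both IP labellings lay above both total labellings in each line. The IP/T ratio of AGO1 was 1.52 (2.09 and 1.1) in EV cells, where the first value in brackets is from the array with IP RNA in Cy5 and the second from the array with IP RNA in Cy3. In miR-155 cells it was 1.56 (1.71 and 1.43). The EV orientations thus fell on either side of 2.

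AGO2 is the slicer of the family and the protein that was immunoprecipitated. Its probe read 1232 and 1409.7 in EV total RNA, 1587 and 1275 in EV Ago2-IP RNA, 1217 and 1057 in miR-155 total RNA and 1482 and 1474 in miR-155 Ago2-IP RNA. IP and total labellings overlapped in EV cells, whereas in miR-155 cells both IP labellings were the higher. The IP/T ratio of AGO2 was 1.08 (1.03 and 1.13) in EV cells and 1.30 (1.21 and 1.40) in miR-155 cells. These ratios had 63.9% and 75.3% of all kept probes below them.

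AGO4, AGO1 and AGO3 are neighbours on one chromosome, with 0 protein-coding genes between them in RefSeq, and AGO2 lies elsewhere. The AGO3 probe read 353 and 354 in EV total RNA, 353 and 538 in EV Ago2-IP RNA, 367 and 359.5 in miR-155 total RNA and 405 and 495 in miR-155 Ago2-IP RNA. No overlap was seen in miR-155 cells, and the ratio of AGO3 was 1.23 (1.52 and 1.00) in EV cells and 1.23 (1.35 and 1.13) in miR-155 cells. AGO4 was detected in 5 of 8 channels, with 1 of 2 labellings well above background in EV total RNA and in both IP RNAs, and it read 145 and 116 in EV total RNA, 113 and 146 in EV Ago2-IP RNA, 97.6 and 116 in miR-155 total RNA and 105.03 and 124 in miR-155 Ago2-IP RNA. Its IP and total labellings overlapped in both lines, at IP/T ratios of 0.991 (1.01 and 0.972) and 1.07 (1.27 and 0.904). The 4 genes of the family therefore all lay within the 10th to 90th percentile of kept probes in EV cells, 0.5 to 2.25, on their mean ratios.

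The processing enzymes differed from the Argonautes and from the export receptor. DROSHA, the nuclear RNase III of the Microprocessor, read 5381 and 6479.8 in EV total RNA, 14884 and 17989 in EV Ago2-IP RNA, 6993 and 8646 in miR-155 total RNA and 21169.9 and 21116 in miR-155 Ago2-IP RNA. All IP labellings stood above all total labellings in each line, with no overlap. The IP/T ratio of DROSHA was 2.77 (3.34 and 2.30) in EV cells and 2.72 (3.02 and 2.45) in miR-155 cells, above 92.6% and 92.0% of kept probes.

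XPO5, the export receptor for miRNA hairpins, was not called. It read 249 and 203 in EV total RNA, 298 and 361 in EV Ago2-IP RNA, 317 and 303 in miR-155 total RNA and 419 and 363 in miR-155 Ago2-IP RNA. Both IP labellings exceeded both total labellings in each line, but by less than 2-fold. The IP/T ratio was 1.46 (1.45 and 1.47) in EV cells and 1.26 (1.15 and 1.38) in miR-155 cells.

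DICER1, the cytoplasmic RNase III that releases the miRNA duplex, was strongly represented in the Ago2 fraction on both of its probes. Probe 1 read 633 and 598 in EV total RNA, 4884 and 5388 in EV Ago2-IP RNA, 698 and 723 in miR-155 total RNA and 6579 and 5850.2 in miR-155 Ago2-IP RNA. Probe 2 read 534 and 497 in EV total RNA, 3158 and 3032 in EV Ago2-IP RNA, 549 and 514 in miR-155 total RNA and 3509 and 3269 in miR-155 Ago2-IP RNA. No IP labelling of either probe overlapped a total labelling. Probe 1 gave IP/T ratios of 8.34 (8.52 and 8.16) in EV cells and 8.74 (8.39 and 9.10) in miR-155 cells. Probe 2 gave 6.01 (5.68 and 6.35) and 6.37 (5.95 and 6.83). The probes thus differed in size but not in direction, and both had at least 97.6% of kept probes below them. Probe 2 fell below 2 in some settings with normexp background correction. It gave 1.844 in EV cells and 1.851 in miR-155 cells after quantile normalisation, and 1.445 and 2.245 after loess. With high local backgrounds replaced as well, it gave 3.676 and 3.939, and 3.533 and 4.636.

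The TNRC6 proteins are the GW182 scaffolds that connect Argonaute to the deadenylases, and the mean IP/T ratio of TNRC6A was the highest of the kept member probes in both lines. In miR-155 cells with IP RNA in Cy3 alone, DICER1 probe 1 was higher, at 9.10 against 8.38. It was also higher in both lines in every setting with normexp background correction that kept both probes. With normexp and quantile normalisation it gave 2.24 against 1.98 in EV cells and 2.41 against 1.89 in miR-155 cells. DROSHA, at 2.04 and 2.29, was above TNRC6A there too. With high local backgrounds replaced, DICER1 probe 1 gave 5.21 against 4.93 and 5.86 against 4.59 after quantile normalisation. After loess it then gave 4.91 against 4.45 and 6.92 against 5.56. TNRC6A probe 1 read 205 and 238 in EV total RNA, 2304 and 3079 in EV Ago2-IP RNA, 255 and 303 in miR-155 total RNA and 2542 and 2836 in miR-155 Ago2-IP RNA. All IP labellings lay far above all total labellings, with no overlap. The ratio was 12.1 (15.02 and 9.68) in EV cells and 9.66 (11.1 and 8.38) in miR-155 cells, above 99.2% and 99.0% of kept probes. Probe 2 was not well above background in total RNA and was so in 1 labelling of each IP. With total RNA raised to at least the lowest signal well above background, the mean of both IP labellings was 1.05-fold higher in EV cells. In miR-155 cells it was 1.26-fold higher. These values come from signals after normexp and loess with high local backgrounds replaced. They are not firm lower bounds, since the mean includes an IP labelling near background. The orientations of the main ratio were 0.919 and 5.68 in EV cells and 2.66 and 6.53 in miR-155 cells.

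TNRC6B was read by 3 kept probes, all called in both lines, and all below 2 in both lines in each of 4 settings with normexp background correction, at 1.05 to 1.95. Probe 1 read 296 and 306 in EV total RNA, 1101 and 1008 in EV Ago2-IP RNA, 489 and 477 in miR-155 total RNA and 1088 and 1131 in miR-155 Ago2-IP RNA. Probe 2 read 218 and 187 in EV total RNA, 606 and 634 in EV Ago2-IP RNA, 241 and 203 in miR-155 total RNA and 602 and 613 in miR-155 Ago2-IP RNA. Probe 3 read 62.7 and 99.4 in EV total RNA, 445 and 489 in EV Ago2-IP RNA, 69.3 and 62.0 in miR-155 total RNA and 350.5 and 334 in miR-155 Ago2-IP RNA. On each of the 3 probes the IP labellings lay above the total labellings without overlap. The IP/T ratios in EV cells were 3.50 (3.41 and 3.60) for probe 1, 3.06 (2.90 and 3.23) for probe 2 and 5.91 (7.79 and 4.48) for probe 3. The corresponding ratios in miR-155 cells were 2.30 (2.31 and 2.28), 2.75 (2.55 and 2.97) and 5.22 (4.82 and 5.65). Probe 4, which was not kept, gave 5.04 (5.18 and 4.91) and 3.49 (4.34 and 2.81). For probes 3 and 4 only 1 of 2 EV total labellings was well above background, so their EV ratios rest in part on a signal near background. TNRC6C was not well above background in any channel, so no ratio is given for it.

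**Figure D2:**
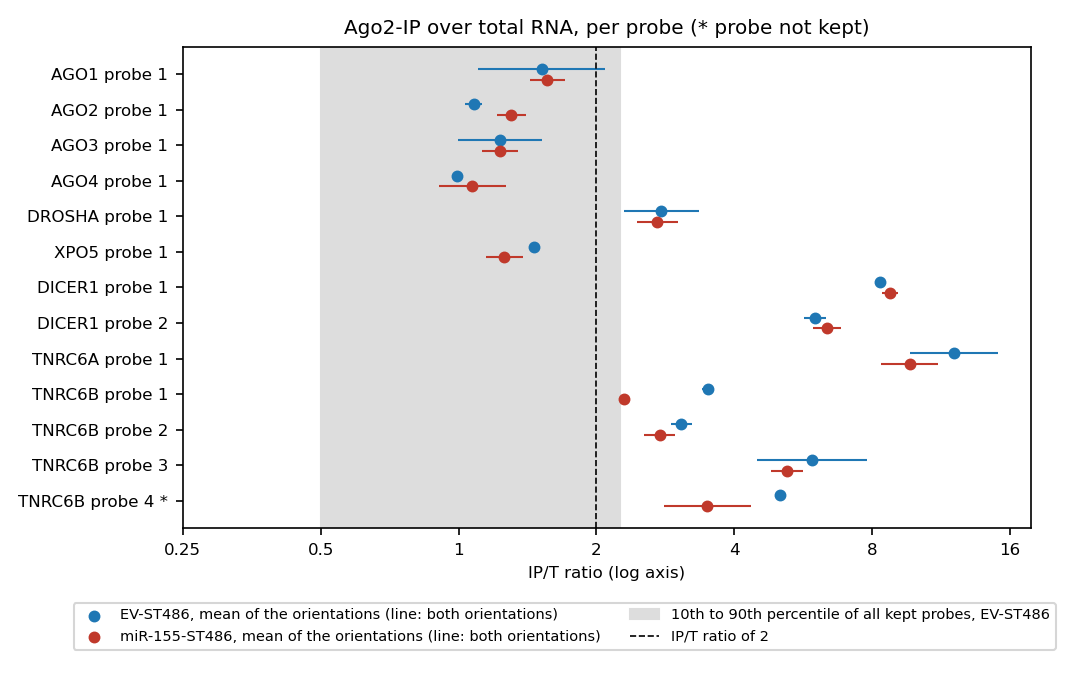
IP/T ratio (log axis) of the 13 member probes that were well above background in at least 1 labelling of every RNA sample, in EV cells (blue) and miR-155 cells (red). Points are means of the dye orientations, lines join both orientations, the grey band is the 10th to 90th percentile of all kept probes in EV cells (0.5 to 2.25) and the dashed line marks a ratio of 2. DROSHA, DICER1, TNRC6A and TNRC6B lie above 2 in both lines, and the Argonautes and XPO5 below it on their means.

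Over the list, 7 of 12 kept probes were called at 2 or above in EV cells, where 12.1% of all 15529 kept probes were. In miR-155 cells it was again 7 of 12, against 12.2% of kept probes, and the same 7 probes were called in both lines, against 10.2%. These probes came from 4 genes, DROSHA, DICER1, TNRC6A and TNRC6B, and probes of a gene are not independent of each other. The other 5 genes with a kept probe were below 2 in both lines. No kept member probe was at or below 0.5, a ratio met by 10% of kept probes in EV cells and 9.83% in miR-155 cells, and by 6.51% in both. A ratio above 1 in each line and each dye orientation was found for 10 of 12 member probes and for 26.3% of all kept probes. The median IP/T ratio was 2.91 over the member probes and 0.900 over all kept probes in EV cells, and 2.50 against 0.882 in miR-155 cells. With 1 RNA sample per condition these are descriptions of the samples. Normexp background correction adds an offset of 50 to each signal. With normexp and quantile normalisation the count of 7 fell to 2 of 13 in each line. The share of all kept probes fell to 2.28% in EV cells and 2.44% in miR-155 cells. With normexp and loess, where DICER1 probe 1 and TNRC6A probe 1 were not kept, the count was 0 and 2 of 11, against 0.767% and 2.23%. With high local backgrounds replaced, it was 4 of 13 in each line after either normalisation. The shares of all kept probes were then 6.05% and 6.26% after quantile normalisation, and 4.93% and 6.97% after loess. How much of the fall came from the offset was not tested.

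The called member probes were spread over the range of signal. When all kept probes were divided into 4 bins of equal size by mean signal, the member probes numbered 2, 4, 5 and 1 from the dimmest bin to the brightest, and 1, 2, 3 and 1 of them were called in both lines. In EV cells the share of all kept probes called in these bins was 11.4%, 12.2%, 13.7% and 11.0%, and in miR-155 cells it was between 10.8% and 13.5%.

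The comparison between the vectors asked whether forced expression of miR-155 altered the transcripts of its own machinery, in total RNA or in the Ago2 fraction. No kept member probe changed at least 2-fold in IP/T between the lines, where 1.63% of all kept probes did, and none changed at least 2-fold in total signal, where 1.06% did. In IP signal the count was again 0 of 12, against 2.33%. Counts of 0 of 12 lie close to these background shares. In bulk RNA, fewer cells and less RNA per cell cannot be told apart. The median ratio of miR-155 cells to EV cells in IP/T was 0.990 over the member probes and 0.983 over all kept probes. In 6 of 12 probes both dye orientations placed the change in IP/T on the same side of 1, above it in 2 and below it in 4. Over all kept probes this held for 59.4%, so the members lay near the background. The sides depended on the processing. With normexp background correction and loess the mean change was above 1 on every kept member probe, between 1.005 and 1.591. With high local backgrounds replaced as well it lay between 1.018 and 1.41. The median log2 change over all kept probes was -0.021 and 0.028 in these settings.

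The member with the widest shift was TNRC6B. On probe 1 the total signal was 1.61-fold higher in miR-155 cells and the IP signal 1.05-fold higher, so that IP/T stood at 0.656 of its EV value (0.678 and 0.634). Both total labellings of miR-155 cells were above both of EV cells. Of all kept probes, 7.96% lay at least as far from 1 in the change of IP/T. Probes 2 and 3 of the gene gave 0.898 and 0.883, the latter with orientations of 0.618 and 1.26 on opposite sides of 1. Probe 2 was below 1 in both orientations (0.877 and 0.919), as was probe 4, which was not kept, at 0.693 (0.838 and 0.573). The total signal of probes 2 and 3 was 1.09 and 0.830 of the EV value. The shift of probe 1 depended on the background correction. With normexp its change in IP/T was 0.973 after quantile normalisation and 1.20 after loess, and with high local backgrounds replaced it was 0.923 and 1.11, so that loess turned its direction. The rise in its total signal depended on the background correction too. In the settings with normexp, no kept member probe was more than 1.132-fold higher in total signal.

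Among the enzymes, the total signal of DROSHA was 1.32-fold and that of XPO5 1.38-fold higher in miR-155 cells, and neither overlapped its EV labellings. The IP/T ratio of DROSHA was 0.981 and that of XPO5 0.862 of the EV value. DICER1 stood at 1.05 on probe 1 and 1.06 on probe 2. TNRC6A stood at 0.800, with total signal 1.26-fold higher. These rises in total signal depended on the background correction. With normexp, no kept member probe was more than 1.055-fold higher after quantile normalisation, or 1.012-fold after loess, where TNRC6A probe 1 was not kept. With high local backgrounds replaced as well, the largest rises were 1.095-fold and 1.132-fold. For the Argonautes the change in IP/T without normexp was 1.03 for AGO1, 1.21 for AGO2, 0.999 for AGO3 and 1.08 for AGO4. The AGO2 change was above 1 in both orientations (1.17 and 1.25), and that of AGO1 was on opposite sides (0.816 and 1.30). As a measure of the range on these arrays, DET1 went from an IP/T ratio of 1.40 in EV cells to 17.5 in miR-155 cells.

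**Figure D3:**
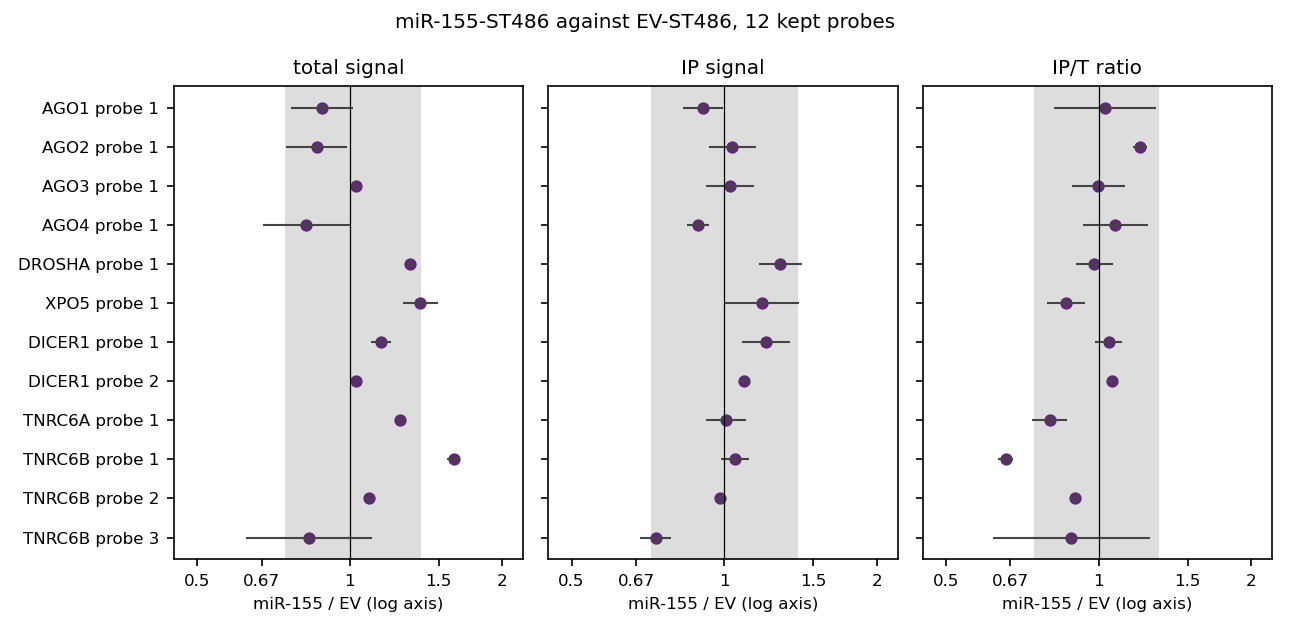
Ratio of miR-155 cells to EV cells for the 12 kept member probes, in total signal, IP signal and IP/T. Points are means of the labellings or orientations, lines join both, and grey bands are the 10th to 90th percentile of all kept probes (0.749 to 1.38 in total signal, 0.720 to 1.40 in IP signal and 0.750 to 1.31 in IP/T). TNRC6B probe 1 lies outside the band in total signal, at 1.61, and in IP/T, at 0.656, and XPO5 lies at the upper edge of the band in total signal, at 1.38.

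The wider pathway was described through 75 further genes, of which 70 had a probe and 57 a kept probe. At least 1 kept probe reached an IP/T ratio of 2 for 15 genes in EV cells and 14 in miR-155 cells, and for 14 genes in both. At or below 0.5 were 4 genes in EV cells and 5 in miR-155 cells, 4 of them in both. Of 8315 genes with a kept probe and a RefSeq symbol, 14.7% reached 2 in each line and 12.6% in both, and 10.4%, 9.36% and 6.48% were at or below 0.5 in EV cells, in miR-155 cells and in both. A gene with more probes is called more easily by this rule. The list had 94 kept probes for 57 genes, and all genes had 11044 for 8315. By the median of its kept probes, 12 genes of the list reached 2 in EV cells and 13 in miR-155 cells. The share of all genes by that measure was not computed. By probe, 16 of 94 were called at 2 or above in each line, beside 12.1% and 12.2% of all kept probes. With normexp and quantile normalisation the count of 15 genes fell to 6, and with normexp and loess to 2, as the share of all kept probes fell to 2.28% and 0.767%. With high local backgrounds replaced it was 9 after either normalisation, against 6.05% and 4.93%. The median over the 94 probes was 1.13 in EV cells and 1.04 in miR-155 cells, against 0.900 and 0.882 over all kept probes.

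Partners of the processing enzymes differed among themselves. DGCR8, the partner of DROSHA, gave 0.880 and 0.750 in EV cells and miR-155 cells. TARBP2, a double-stranded RNA-binding partner of DICER1, gave 2.69 and 3.64. The RNA editing enzyme ADARB1 gave 3.68 and 3.96 and the terminal uridylyltransferase TUT4 2.78 and 2.21. Of 10 primary processing genes 1 was called at 2 or above in both lines, as were 2 of 4 genes of export and of the Dicer step, beside 12.6% of all genes. RAN, the GTPase that drives export, was at 0.494 and 0.430 on 1 probe and 1.09 and 0.807 and 1.00 and 1.04 on the others.

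None of 12 genes of RISC loading and Argonaute partners was called at 2 or above in both lines, and 3 were at or below 0.5 on a probe. The RNA-binding protein FXR1 gave 0.456 and 0.448. The cochaperone FKBP4 gave 0.215 and 0.297 on probe 2 and 0.721 and 0.664 on probe 1. The chaperone HSPA8 gave 0.429 and 0.441 on probe 4, while its other probes lay between 1.65 and 2.06. RAN and HSPA8 have pseudogene copies, whose share in these signals was not tested. The helicase MOV10 had no kept probe.

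Of 16 deadenylation genes 6 were called at 2 or above in both lines on at least 1 probe, beside 12.6% of all genes. By the median of its probes, 5 were in each line. BTG2, an antiproliferative activator of the CCR4-NOT deadenylase, had the highest ratio of the list, at 43.6 (49.4 and 38.5) in EV cells and 38.2 (45.1 and 32.3) in miR-155 cells. Its relatives TOB2 and TOB1 gave 5.62 and 6.06, and 3.06 and 2.84. The deadenylase CNOT6L gave 4.72 and 4.22 and the ubiquitin ligase CNOT4 4.57 and 3.38. CNOT1, the scaffold of the complex, gave 2.29 and 2.54 on a probe to another transcript, and 1.36 and 1.34 and 0.793 and 0.882 on its other probes. CNOT3 was at or below 0.5 in miR-155 cells alone, with 0.511 and 0.460, a difference between lines that was not tested.

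Of 15 genes of decapping, translational repression and decay 5 were called at 2 or above in both lines on at least 1 probe, against the same 12.6%. By the median of its probes, 4 were in EV cells and 5 in miR-155 cells. The translation initiation helicase EIF4A2 gave 4.72 and 5.82 on probe 1 and 3.04 and 3.06 on probe 2. The decapping factors DCP1A and DCPS gave 2.10 and 2.02, and 2.74 and 2.74. EIF4E2, a cap-binding repressor, gave 2.05 and 2.39, and the P-body protein LSM14A gave 2.75 and 4.60 on probe 1 and 1.29 and 2.09 on probe 2. The P-body helicase DDX6 gave 1.83 and 1.37. No gene of the wider list changed at least 2-fold in IP/T between the lines. In total signal 1 did, the cap-binding protein NCBP1, with 1190.3 and 603 in EV total RNA, 897 and 1188 in EV Ago2-IP RNA, 1709 and 1837 in miR-155 total RNA and 1312 and 1321 in miR-155 Ago2-IP RNA, or 2.09-fold higher in miR-155 cells. Its EV total labellings were themselves nearly 2-fold apart. In IP signal 4 of 94 probes changed at least 2-fold, against 2.33% of all kept probes, and all 4 were higher in miR-155 cells. Named after their values were seen, these were both kept probes of the helicase DHX9, at 2.54 and 2.45, LSM14A probe 1 at 2.12 and a probe of the chaperone HSP90AB1 at 2.01.

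**Figure D4:**
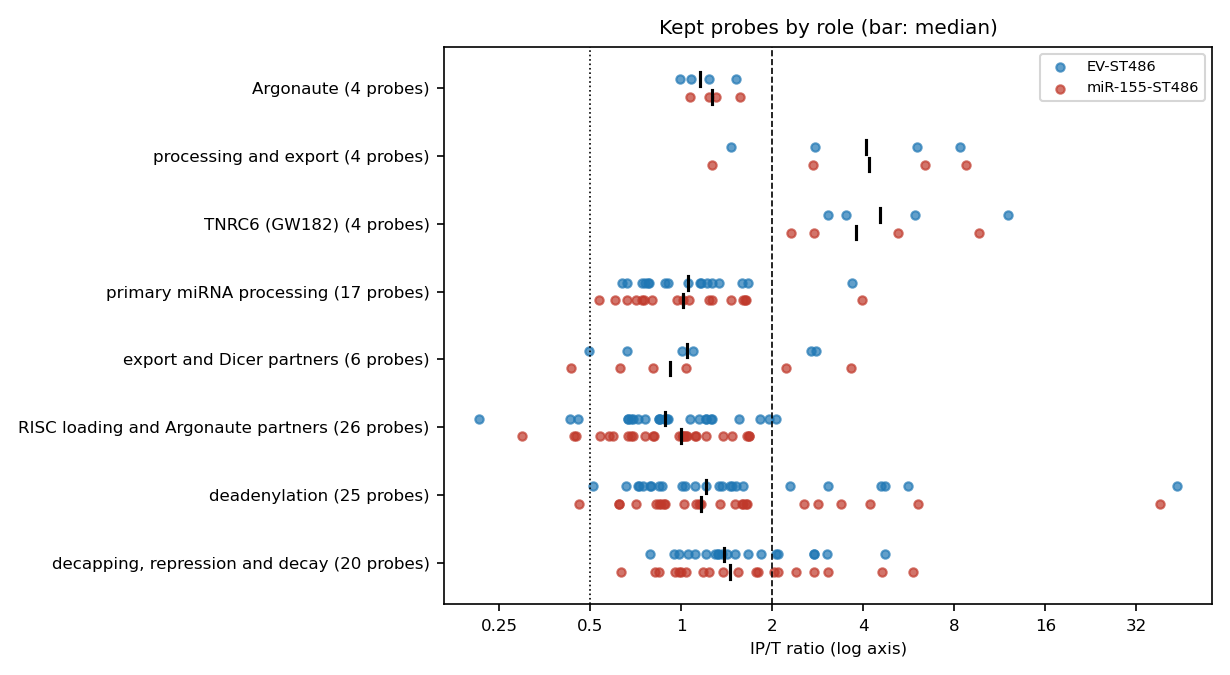
IP/T ratio (log axis) of every kept probe of the 10 genes and of the wider list, grouped by role, in EV cells and miR-155 cells. Each point is 1 probe, bars are medians and lines mark ratios of 2 and 0.5. The median of the 94 probes of the wider list was 1.13 in EV cells, and BTG2 lies highest at 43.6.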

How the data were processed

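Total RNA and Ago2-IP RNA of EV-ST486 and miR-155-ST486 were hybridised to 4 dual-colour Agilent arrays, which give 8 channels with each RNA in both dyes. Spot intensities were deposited by the authors as Feature Extraction 10.5.1.1 output, 1 channel per sample, with signals background-subtracted and dye-normalised within each array. The authors' deposited log2 table of 14453 probes served as a check, and 99.9% of its values lay within 0.05 of those computed here. Groups were taken from the sample labels.

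Processed signals were averaged over the spots of a probe, set to at least 1, put on the log2 scale and quantile-normalised over the 8 channels. A probe was detected in a channel where a spot was marked by the software as positive, significant and well above background. Probes detected in at least 4 channels whose labellings of each RNA sample lay within 2-fold were kept. Ratios are means of both dye orientations on the log2 scale. Symbols came from RefSeq, which matched 23958 probes. Named genes of the wider list were those at 2 or above or 0.5 or below in both lines, those changed 2-fold in IP/T or total signal between lines, and DGCR8, TARBP2, MOV10, DDX6 and CNOT1. Members and lists were chosen with earlier results of these data known. Since each condition had n = 1, tests were not possible, and the number of arrays limits the precision. The calculation was tested on simulated data. The result for 1 marker gene is not reported here. Normexp and loess were run with limma 3.58.1 under R 4.3.3, and all else under Python 3.11.15 with pandas 2.3.3 and numpy 2.4.6. Loess was run within each array and was followed by quantile normalisation of the average log2 signals between arrays. Figures were drawn with matplotlib 3.10.9. Alternatives covered background correction, normalisation, filters, dye orientation and threshold.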

Additional observations from a re-analysis of the deposited data

How the results depend on the processing

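Counts were recomputed under 13 other settings and single-probe ratios under the 11 of these that keep the threshold. No ratio past the threshold changed sign, 293 values moved by less than the spread between labellings and 88 by more. Many of the 293 were fixed in advance. Settings that changed only a filter left every ratio as it was. A single dye orientation moves a ratio by less than this spread by construction. The count of 293 is therefore no measure of stability. Each condition rests on 1 RNA sample and each vector on 1 slide, which limits every value here. IP and total RNA of a line shared each array, and the ratio of each dye orientation was taken within 1 array. No paired test was possible because the labels carry no replicate numbers and each condition has 1 RNA sample.

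The background correction moved the most values. Normexp adds an offset of 50 to every signal by construction. With normexp and quantile normalisation, 2 member probes of EV-ST486 and 2 of miR-155-ST486 reached an IP/T ratio of 2 (7 and 7 otherwise), 6 and 6 wider pathway genes did (15 and 14), 0 and 1 were at or below 0.5 (4 and 5), and the median log2 IP/T over member probes was 0.31 and 0.27 (1.54 and 1.32). With normexp and loess, the values were 0 and 2 member probes, 2 and 8 pathway genes, 0 and 1 genes at or below 0.5, and medians of 0.10 and 0.33. With spots of high local background replaced, normexp and quantile gave 4 and 4 member probes, 9 and 8 pathway genes, 2 and 3 genes at or below 0.5, and medians of 0.87 and 0.75. Normexp and loess then gave 4 and 4 member probes, 9 pathway genes in EV-ST486, 2 and 1 genes at or below 0.5, and medians of 0.65 and 0.83. In these 4 settings the share of all kept probes at 2 or above in EV-ST486 was 0.767% to 6.05%, and in miR-155-ST486 2.23% to 6.97%. DICER1 probe 1 and TNRC6A probe 1 were not kept with normexp and loess, so they have no value there. Over the settings that kept the probe, the ratio of DICER1 probe 1 in EV-ST486 lay between 2.24 and 8.52, that of TNRC6A probe 1 between 1.98 and 15.02, that of DROSHA between 1.56 and 3.34 and that of TNRC6B probe 1 between 1.09 and 3.60.

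Without quantile normalisation, 1 member probe, TNRC6B probe 1, had total signal changed at least 2-fold, at 2.15, where the median of all kept probes was shifted by 0.44 on the log2 scale. In the settings with normexp, the highest change in total signal of a kept member probe lay between 1.012 and 1.132. The lowest lay between 0.7235 and 0.9421. Requiring detection in all 8 channels left 3 pathway genes at or below 0.5 in miR-155-ST486. At a threshold of 1.5, 19.3% of all kept probes had an IP/T ratio that high in each line. So did 21 wider pathway genes of EV cells and 22 of miR-155 cells. On the lower side the counts were 10 and 13 genes, and the share of all genes on that side was not computed. Between the lines, TNRC6B probe 1 was the only member probe called changed, in IP/T and in total signal. Of all kept probes, 7.96% and 5.65% lay at least as far from 1 as this probe. The shares changed at least 1.5-fold were not computed. At a threshold of 3, reached by 6.61% and 6.91% of all kept probes, 4 member probes were called in miR-155-ST486, 7 and 8 pathway genes were called higher, and 1 and 1 lower. Either dye orientation alone left every count within 1.5 times its value from both.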
